A study of Homo sapiens with 2 samples.

Results

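A group of 6 hashtag-labelled tumour samples with high levels of hypoxia genes was compared with the other 9 samples of the same pool. The cells were OVCAR5, an established human ovarian carcinoma line carrying an IFN-gamma-sensing reporter and CFP, grown as tumours in NSG-b2m-/- mice, an immunodeficient strain that also lacks beta-2 microglobulin. Cells of 5 tumours were dissociated and kept ex vivo for 6 h, without stimulation, with TNF at 10 ng/ml, or with TNF at 10 ng/ml plus IFN-gamma at 100 ng/ml. The description lists 15 such conditions, 5 for each treatment; CFP+ cells sorted from the pool were read in 1 single-cell gene expression library with a matching hashtag library. Of 10 hashtags (antibody-bound barcodes, HTO1 to HTO10), a pair marked each sample. In all, 15 pairs were found, none of them with HTO1. No label used here says which pair came from which tumour or treatment, so tumour, hashtag and side of the comparison cannot be told apart.

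The 6 samples of the high side were HTO3 with HTO5, HTO6, HTO7, HTO8 or HTO9, and HTO4+HTO10. The low side held HTO2 with HTO5, HTO6, HTO7, HTO8 or HTO10, and HTO4 with HTO6, HTO7, HTO8 or HTO9. The sides were chosen on the hypoxia gene values of these same samples. All differences between them are therefore given as descriptions, without tests, and no difference between the sides supports the choice. A cell was kept when it had at least 1000 genes and at most 20% mitochondrial counts, and was assigned when its 2 leading hashtags stood clear of the next. This left 1394 cells on the high side and 1750 on the low side, of 3538 kept cells in all, of which 394 had no clear pair.

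Hypoxia-inducible factors (HIFs) are transcription factors whose alpha subunits are hydroxylated by oxygen-dependent prolyl hydroxylases, then bound by VHL and degraded. When oxygen is scarce the alpha subunits persist and raise genes of glucose uptake, glycolysis, angiogenesis, pH control and collagen modification, among them the hydroxylases EGLN1 and EGLN3. In solid tumours this programme marks poorly perfused regions, and some of its genes also answer to nutrient or oxidative stress.

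To set samples of like cytokine response beside each other, the 15 samples were divided into 3 classes by the summed levels of an IFN-gamma response list and a TNF and NF-kB response list. A level is a summed count per 10000 UMIs (unique transcript molecules) of the sample. The IFN-gamma list reached 240.4 to 350.3 in 5 samples and 16.7 to 38.6 in the other 10, of which 5 had a TNF list level of 88.4 to 125.7 and 5 of 21.0 to 32.2. Each class held 2 high-side and 3 low-side samples. The class with both lists low held HTO4+HTO10 and HTO3+HTO7 on the high side, the class with only the TNF list high held HTO3+HTO8 and HTO3+HTO5, and the class with the IFN-gamma list high held HTO3+HTO6 and HTO3+HTO9. A log2 difference was taken within each class, on log2(level + 0.05), and is given as the mean ± SD over the 3 classes (n = 3). The classes may hold cells of the same tumours, so this SD does not measure spread between tumours.

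Depth was alike on both sides. The median UMIs per cell ranged from 10942 to 12369 on the high side and from 10952 to 12405 on the low side, and the median mitochondrial share from 12.9% to 14.7% against 12.2% to 13.8%. The high side divided sharply in size: HTO4+HTO10, HTO3+HTO8 and HTO3+HTO6 held 291, 630 and 300 cells, while HTO3+HTO7, HTO3+HTO5 and HTO3+HTO9 held 71, 49 and 53. Each class thus had 1 larger and 1 smaller high-side sample. On the low side HTO4+HTO9 held 64 cells and the others 131 to 347. The smaller high-side samples also had fewer hashtag counts. Their medians were 752, 949 and 707 per cell, against 1022 to 1652 in the larger and 1140 to 1893 on the low side. The next hashtag after the pair took a median share of 0.775% to 1.07% in them, 0.564% to 0.878% in the larger and 0.396% to 0.724% on the low side, and its part in their gene levels was not tested. The larger 3 are described apart from the smaller 3 below, a division by cell number that was selected after their values were seen. No label says whether each set of 3 came from 1 tumour. Of 12 epithelial tumour markers 10 were measured, led by KRT18, KRT8 and KRT19, at a summed level of 44.6 to 90.2 on the high side and 42.4 to 86.9 on the low side. T or NK cell markers summed to at most 0.0110 and 0.0161 on the high and low side, and all 5 erythroid markers were at 0 in every sample; myeloid markers summed to 0.292 to 0.605 and 0.354 to 0.605, fibroblast markers to 0.0172 to 0.0778 and 0.0108 to 0.0741. Endothelial markers summed to 0.486 to 0.617 and 0.440 to 0.594, nearly all of it EGFL7, with KDR, an endothelial receptor, at 0 in every sample of both sides.

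The label names LDHA, EGLN3 and ANGPTL4 as markers of the high side, and only LDHA separated the sides. LDHA, the lactate dehydrogenase subunit that turns pyruvate into lactate, was at 11.7 in HTO4+HTO10, 11.5 in HTO3+HTO7, 12.5 in HTO3+HTO8, 11.2 in HTO3+HTO5, 9.66 in HTO3+HTO6 and 9.42 in HTO3+HTO9. On the low side it had a lowest level of 5.47, a median of 6.38 and a highest of 8.04. Every high-side sample thus lay above every low-side sample, whatever the class, with a log2 difference of 0.76 ± 0.11 (1.69-fold). The smallest high-side LDHA count was 611, in HTO3+HTO9, which gives an exact 95% Poisson interval of 8.69 to 10.2 for its level.

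EGLN3, the prolyl hydroxylase that is itself a strong HIF target, was at 3.39 in HTO4+HTO10, 2.46 in HTO3+HTO8 and 2.23 in HTO3+HTO6. In HTO3+HTO7, HTO3+HTO5 and HTO3+HTO9 it was at 0.242, 0.326 and 0.493, inside the low-side range of 0.198 to 0.815. The 3 smaller samples therefore go against the label for this gene, and their counts of 22, 19 and 32 give Poisson intervals of 0.152 to 0.367, 0.197 to 0.510 and 0.337 to 0.696. The mean difference of 1.16 ± 0.32 over the whole high side joins 2.55 ± 0.68 in the larger samples and -0.24 ± 0.13 in the smaller ones. ANGPTL4, a secreted inhibitor of lipoprotein lipase, had levels of 3.42, 1.64 and 0.448 in the larger samples, in the class order above, and 0.661, 0.429 and 0.231 in the smaller ones. Its low-side levels were 0.445 to 1.08 with both lists low, 0.204 to 0.385 with the TNF list high and 0.0668 to 0.123 with the IFN-gamma list high. HTO3+HTO7 lay within its class's low-side range, whereas HTO3+HTO5 and HTO3+HTO9 lay above theirs. Poisson intervals here cover counting error only, and sums over cells cannot tell fewer expressing cells from less RNA per cell.

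**Figure D1:**
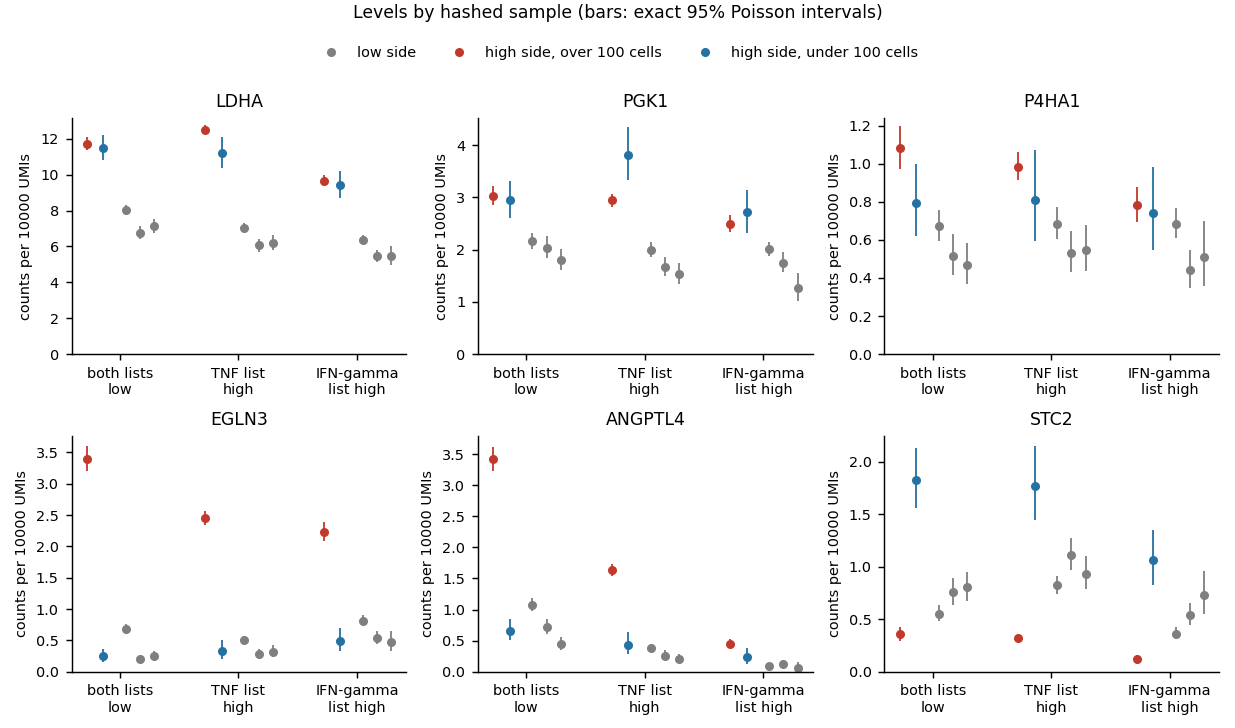
Levels of 6 genes (counts per 10000 UMIs, vertical axes from 0) in the 15 hashed samples by response class; bars are exact 95% Poisson intervals. LDHA and PGK1 are higher in all 6 high-side samples, EGLN3 is high only in the 3 larger ones (2.23 to 3.39), and STC2 lies on opposite sides of the low side in the larger (0.121 to 0.357) and smaller (1.06 to 1.83) samples.

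Promoter sequences are shown for LDHA, PGK1 and P4HA1, the hypoxia members whose high-side levels exceeded all 9 low-side levels, and for ANGPTL4 and EGLN3, the named markers that did not. Each runs from 250 bases before to 50 after the start of transcription, 5′ to 3′ on the gene's strand, from RefSeq on GRCh38.p14, with every ACGTG or CACGT (the same letters on the other strand, the core bound by HIF) in capitals. LDHA lies at chr11:18394313-18394612 on the plus strand, PGK1 at chrX:78103998-78104297 (plus), P4HA1 at chr10:73096817-73097116 (minus), ANGPTL4 at chr19:8363905-8364204 (plus) and EGLN3 at chr14:33951025-33951324 (minus).
LDHA: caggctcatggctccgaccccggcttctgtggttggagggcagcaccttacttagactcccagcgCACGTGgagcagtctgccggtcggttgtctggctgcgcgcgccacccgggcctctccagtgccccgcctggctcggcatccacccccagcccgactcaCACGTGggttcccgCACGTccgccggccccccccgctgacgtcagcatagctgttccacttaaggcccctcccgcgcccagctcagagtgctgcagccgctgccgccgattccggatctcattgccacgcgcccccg
PGK1: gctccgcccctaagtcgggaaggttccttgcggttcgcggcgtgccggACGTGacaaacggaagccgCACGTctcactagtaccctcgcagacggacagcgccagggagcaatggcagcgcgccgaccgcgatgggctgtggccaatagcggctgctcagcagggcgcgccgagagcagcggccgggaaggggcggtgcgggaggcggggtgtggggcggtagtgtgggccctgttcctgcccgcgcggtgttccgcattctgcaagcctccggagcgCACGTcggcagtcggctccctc
P4HA1: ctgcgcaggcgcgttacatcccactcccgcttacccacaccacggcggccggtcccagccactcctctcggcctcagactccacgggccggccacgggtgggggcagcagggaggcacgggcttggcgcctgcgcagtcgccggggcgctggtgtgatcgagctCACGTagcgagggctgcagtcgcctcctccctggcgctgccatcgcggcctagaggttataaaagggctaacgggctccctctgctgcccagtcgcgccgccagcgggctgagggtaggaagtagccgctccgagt
ANGPTL4: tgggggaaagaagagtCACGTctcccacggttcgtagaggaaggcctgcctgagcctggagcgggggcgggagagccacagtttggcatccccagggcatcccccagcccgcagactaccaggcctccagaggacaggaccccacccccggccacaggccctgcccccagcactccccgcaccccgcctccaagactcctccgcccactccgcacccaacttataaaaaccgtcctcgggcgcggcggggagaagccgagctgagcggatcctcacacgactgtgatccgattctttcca
EGLN3: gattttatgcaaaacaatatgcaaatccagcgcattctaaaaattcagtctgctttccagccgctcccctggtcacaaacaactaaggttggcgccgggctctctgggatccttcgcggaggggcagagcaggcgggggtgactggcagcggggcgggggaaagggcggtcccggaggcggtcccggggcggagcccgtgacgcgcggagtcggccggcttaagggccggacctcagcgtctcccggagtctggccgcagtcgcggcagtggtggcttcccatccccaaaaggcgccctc
The LDHA window shown held 5 matches in 3 runs, with starts at -185, -184, -87, -86 and -73 relative to the start of transcription. CACGTG reads the same on both strands and counts in each direction. Another LDHA window, at chr11:18396101-18396400 and not shown, held no match. PGK1 held 3 matches, P4HA1 and ANGPTL4 held 1 each, and no match was in the EGLN3 window. Of all 35116 RefSeq windows of this length, 21.4% held such a match, and of the 10965 windows of measured genes 26.2%. The 20 genes higher on the high side in every class, listed next, had 25 windows for 17 of them, and 13 of these windows (52.0%, from 10 genes) held a match. For the related core GCGTG, sought on both strands, the shares were 36.5% of all windows, 49.7% of windows of measured genes and 44.0% of the windows of the 20 genes. Nothing is read from these shares, because 10 of the 20 genes are members of the hypoxia lists and the sides were chosen on such genes. Genes with more than 1 window, such as HK2, also count more than once. These matches are letters in a window and no measure of binding.

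Across the 9361 genes with a mean level of at least 0.05, 20 (0.214%) were higher in both high-side samples than in all 3 low-side samples of every class, and 34 (0.363%) were lower. Of 117 listed hypoxia genes 86 passed that minimum, 10 of these were among the 20 higher genes and none was among the 34 lower ones. Nothing is read from these shares, because the sides were selected on such genes. By the low-side mean alone 85 would have passed, with ALDOA and PDK3 out and ARNT in. The 10 were LDHA, PGK1, HK2, PGAM1, GAPDH, TPI1, FAM162A, LOXL2, P4HA1 and P4HA2. Over the 86 the median log2 difference was 0.18, and over all genes it was -0.04. The sum over the 8 lists was 155.7 to 194.7 on the high side and 137.4 to 165.6 on the low side, a difference of 0.23 ± 0.05, and LGALS3, GAPDH and MIF made up 17.4%, 11.8% and 11.0% of the sum of mean levels. In each class the lowest high-side sum stood above the highest low-side sum: 186.4 in HTO3+HTO7 against 165.6, 184.8 in HTO3+HTO8 against 159.6 and 155.7 in HTO3+HTO6 against 140.2. With no regard to class, 5 genes were higher in all 6 high-side samples than in all 9 others, namely LDHA, PGK1, P4HA1, WDR54 and MOB3A, and ZNF263 and LRRC8E were lower.

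**Figure D2:**
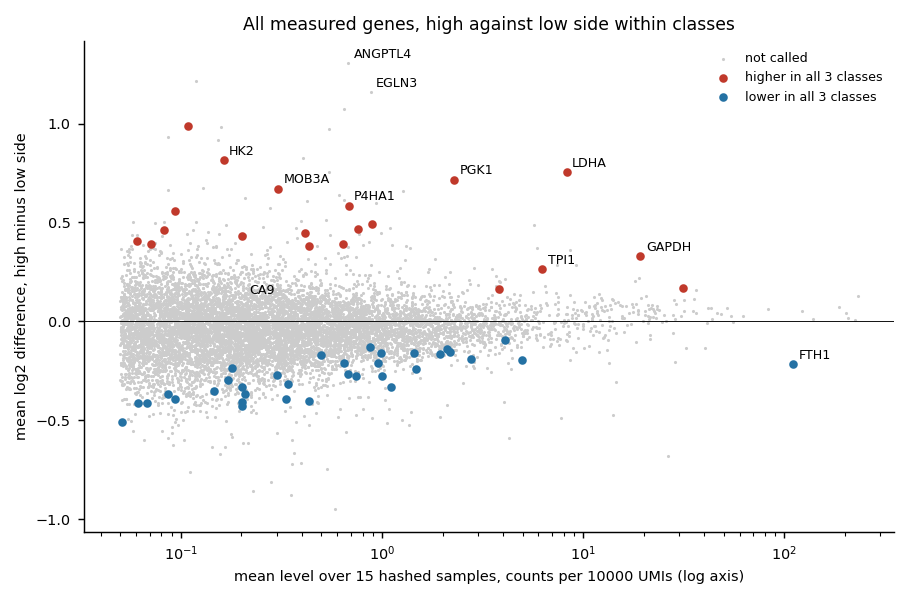
Mean log2 difference between high and low side within classes (vertical axis) against mean level over 15 samples (log axis) for the 9361 measured genes. The 20 genes higher in every class are red and the 34 lower are blue; EGLN3 and ANGPTL4 have larger mean differences (1.16 and 1.31) than LDHA (0.76) without separating the sides.

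Glycolysis was the list with most separated members. Its 25 measured genes of 29 had a median difference of 0.26, and 6 were higher in every class and none lower, beside the 0.214% and 0.363% of all genes. PGK1, the phosphoglycerate kinase that makes the first ATP of the pathway's payoff phase, was at 3.04, 2.94, 2.94, 3.81, 2.49 and 2.71 in HTO4+HTO10, HTO3+HTO7, HTO3+HTO8, HTO3+HTO5, HTO3+HTO6 and HTO3+HTO9. Its low-side levels ran from 1.27 through a median of 1.80 to 2.17, so the sides did not overlap, and the difference was 0.72 ± 0.20. HK2, the hexokinase that traps glucose in the cell, was at 0.383, 0.220, 0.257, 0.206, 0.209 and 0.139 in the same order and at 0.0267 to 0.204 on the low side, a difference of 0.81 ± 0.13. Its ranges overlapped across classes though not within them. GAPDH, the dehydrogenase midway along the pathway, had levels of 18.5 to 26.7 against 14.7 to 20.4 and a difference of 0.33 ± 0.12. TPI1, which interconverts the triose phosphates, differed by 0.26 ± 0.10 and PGAM1, a phosphoglycerate mutase, by 0.47 ± 0.14, though PGAM1 was no longer separated with a mitochondrial share of at most 15%. These enzymes were higher in both the larger and the smaller samples, as LDHA was (0.79 ± 0.15 and 0.72 ± 0.08). For HK2 this rests on few counts in the smaller samples: 20, 12 and 9 in HTO3+HTO7, HTO3+HTO5 and HTO3+HTO9. Its lowest low-side level, 0.0267 in HTO4+HTO9, was a count of 2.

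Other genes of sugar metabolism differed between the larger and the smaller samples; where a pair of log2 differences is given from here on, the larger samples come first. PDK1, the kinase that shuts pyruvate out of the mitochondrion, was at 0.454, 0.344 and 0.306 in HTO4+HTO10, HTO3+HTO8 and HTO3+HTO6, at 0.0551, 0.0687 and 0.0925 in HTO3+HTO7, HTO3+HTO5 and HTO3+HTO9, and at 0.0161 to 0.163 on the low side. The larger samples stood at 2.1 ± 0.08 and the smaller at 0.33 ± 0.53. PFKFB3, which makes the activator of phosphofructokinase, was at 1.35, 0.976 and 0.665 in the larger samples, 0.220, 0.172 and 0.277 in the smaller, and 0.225 to 0.400 on the low side. Both smaller and larger samples left its class ranges, in opposite directions (1.56 ± 0.50 and -0.34 ± 0.28). The smaller samples held 20, 10 and 18 counts, with Poisson intervals of 0.135 to 0.340, 0.0824 to 0.316 and 0.164 to 0.439. Each interval reached into the low-side range of its class. GPI, the isomerase after hexokinase, gave 0.47 ± 0.34 and 0.81 ± 0.52, and ENO1, an enolase, 0.11 ± 0.08 and 0.46 ± 0.07. SLC2A1, the main glucose importer, was at 0.550 to 1.68 on the high side and 0.484 to 1.59 on the low side, and its difference of 0.11 ± 0.12 did not separate them. SLC16A3, the lactate exporter, was at 0.42 ± 0.09 in the larger samples and -0.06 ± 0.11 in the smaller. ALDOA was at a mean level of 0.0553 and LDHB at 0.00194; whether reads of these 2 genes went to overlapping or similar genes was not tested, and the same holds for the processed pseudogenes of LDHA, PGK1 and GAPDH.

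RNAs of the HIF subunits did not separate the sides. HIF1A was at 1.93 to 3.28 on the high side and 1.92 to 3.50 on the low side, with a difference of -0.12 ± 0.03, and EPAS1, which encodes HIF-2 alpha, differed by -0.15 ± 0.19. VHL, the ubiquitin ligase subunit that binds hydroxylated HIF alpha, was at -0.38 ± 0.50, an SD larger than its mean. EGLN1, the main oxygen-sensing hydroxylase, was at 0.844, 0.919 and 0.577 in the larger samples and 0.375, 0.309 and 0.185 in the smaller ones, against 0.427 to 0.490, 0.522 to 0.600 and 0.254 to 0.278 in the low-side samples of the same classes. It was above the low side in every larger sample (0.83 ± 0.17) and below it in every smaller one (-0.48 ± 0.27). The smaller samples held 34, 18 and 12 counts. The Poisson intervals of HTO3+HTO7 (0.259 to 0.524) and HTO3+HTO9 (0.0956 to 0.323) reached into the low-side range of their classes. KDM3A, a histone H3K9 demethylase, was at 1.55 ± 0.36 and 0.41 ± 0.34, and BHLHE40, a transcriptional repressor, at 0.91 ± 0.47 and -0.36 ± 0.43. None of the 12 measured members of this list was separated over the whole high side.

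Among 8 measured secreted targets, LOXL2, a lysyl oxidase that crosslinks collagen, was the member separated in every class (0.56 ± 0.30), at levels of 0.0805 to 0.154 against 0.0267 to 0.124. Its counts were 12, 8 and 10 in HTO3+HTO7, HTO3+HTO5 and HTO3+HTO9, and its lowest low-side level, in HTO4+HTO9, was a count of 2. The separation was lost with a mitochondrial share of at most 15%, with the mean per cell and without the cells of highest cycling level. STC2, a secreted glycoprotein that also responds to endoplasmic reticulum stress, was at 0.357, 0.319 and 0.121 in the larger samples and 1.83, 1.77 and 1.06 in the smaller. Its low-side range was 0.361 to 1.11. It was thus below the low side of its class in every larger sample (-1.35 ± 0.44) and above it in every smaller one (1.05 ± 0.25). ADM, the vasodilator peptide adrenomedullin, was at 1.31 ± 0.38 and 0.20 ± 0.17. VEGFA, the main angiogenic factor, was at 0.385 to 0.994 on the high side and 0.333 to 0.648 on the low side, with 0.47 ± 0.17 in the larger and 0.17 ± 0.35 in the smaller samples.

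The collagen prolyl hydroxylases P4HA1 and P4HA2 were higher in every class. P4HA1 was at 1.08, 0.793, 0.984, 0.807, 0.781 and 0.740 in HTO4+HTO10, HTO3+HTO7, HTO3+HTO8, HTO3+HTO5, HTO3+HTO6 and HTO3+HTO9 and at 0.440 to 0.685 on the low side, so the sides did not overlap (0.58 ± 0.12). P4HA2 gave 0.39 ± 0.09. The separation of P4HA1 was lost with the mean per cell, and that of P4HA2 with a mitochondrial share of at most 15%. PLOD2, a lysyl hydroxylase, differed by 0.57 ± 0.42, and ERO1A, an oxidase of disulfide formation, by 0.34 ± 0.03, and neither was separated. FAM162A, a mitochondrial HIF target linked to cell death, had levels of 0.821 to 1.43 against 0.628 to 0.886 (0.49 ± 0.21). BNIP3, a mitophagy receptor often used as a hypoxia gene, was below the minimum everywhere, at no more than 0.0172 on either side.

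Of 4 measured genes of pH and ion handling none was separated over the whole high side. CA9, the extracellular carbonic anhydrase widely used as a hypoxia marker, was at 0.139, 0.135 and 0.137 in the larger samples, 0.176, 0.395 and 0.385 in the smaller, and 0.113 to 0.285 on the low side. The larger samples were therefore low within this range (-0.34 ± 0.12) and 2 of the smaller ones above it (0.57 ± 0.45). CA12, a related enzyme, was at 0.42 ± 0.24 and -0.66 ± 0.46. In lipid handling, HILPDA, a lipid-droplet inhibitor of lipolysis, was at 1.24 ± 0.09 and 0.09 ± 0.21, and INSIG2, a brake on sterol synthesis, at 0.79 ± 0.09 and 0.01 ± 0.21. NDRG1, a stress-responsive gene of growth arrest, was at 1.38, 0.875 and 0.443 in the larger samples and 0.408, 1.05 and 0.740 in the smaller, against 0.269 to 0.510 on the low side. Of the 6, HTO3+HTO6 alone lay inside the low-side range of its own class. DDIT4, an inhibitor of mTORC1, was at 1.16 ± 0.57 and 0.16 ± 0.07.

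Divided by size, the 3 larger high-side samples had 73 genes (0.780%) above and 41 (0.438%) below all low-side samples of their class in every class, with a mean difference past 1.5-fold. The 3 smaller ones had 44 (0.470%) above and 156 (1.67%) below. The larger and smaller sets are compared with the same 9 low-side samples. Of the 86 measured hypoxia members, 17 were above and 1 below in the larger set, and 8 above and 1 below in the smaller set. Their median difference was 0.21 in the larger set and 0.16 in the smaller, beside -0.02 and -0.05 over all genes. The 17 were led by EGLN3, ANGPTL4, PDK1, PFKFB3 and KDM3A, with STC2 the 1 below. The 8 were STC2, DUSP1, NDRG1, GPI, PGK1, CCNG2, LDHA and LOXL2, with CA12 below. The summed hypoxia lists did not show this contrast, at 0.22 ± 0.05 and 0.25 ± 0.07, whereas the oxygen-sensing list alone was at 0.64 ± 0.22 and -0.21 ± 0.06.

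**Figure D3:**
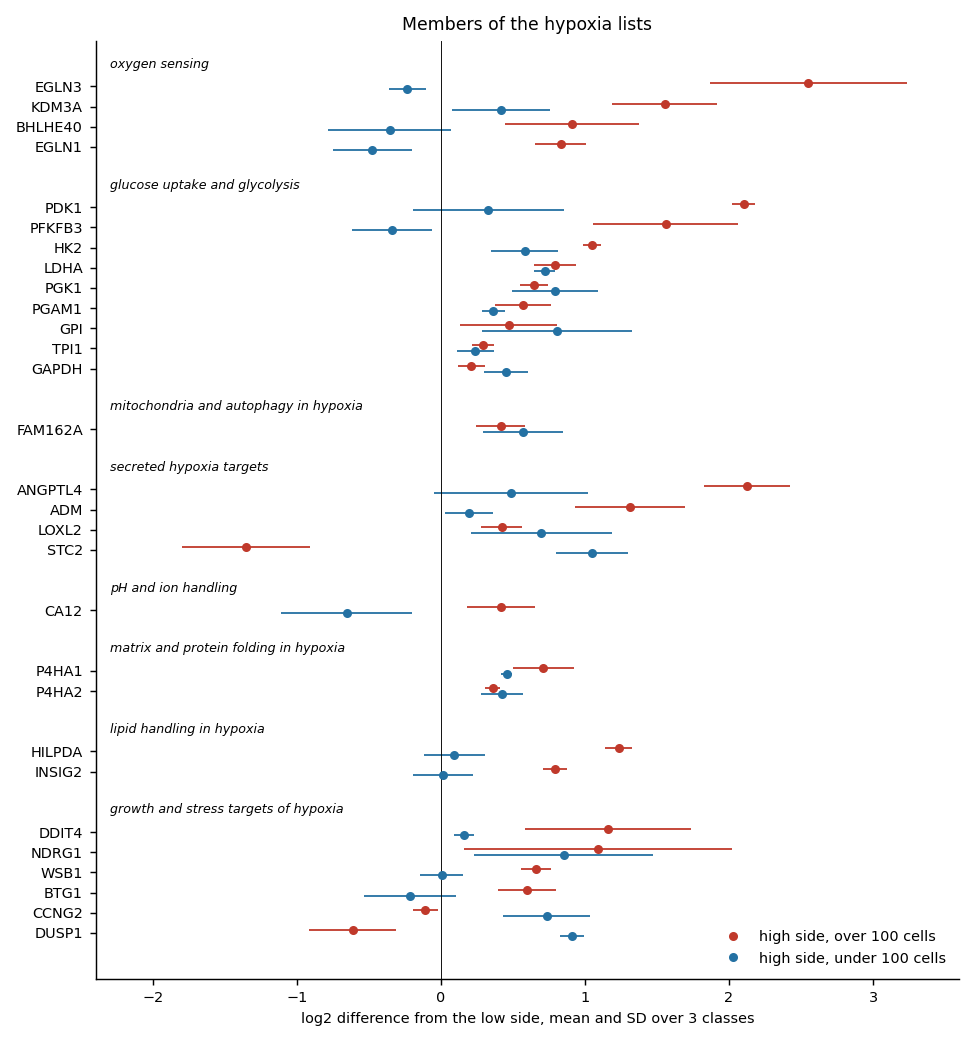
Log2 difference from the low side (horizontal axis, mean and SD over 3 classes) for the hypoxia members past a threshold in any comparison, by role, in the 3 larger (red) and 3 smaller (blue) high-side samples. LDHA, PGK1, HK2 and P4HA1 lie right of 0 in both, EGLN3 and PDK1 lie far right in the larger samples only (2.55 and 2.1), and STC2, EGLN1 and PFKFB3 lie on opposite sides of 0.

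Genes outside the hypoxia lists divided the larger from the smaller samples as well. Of 20 measured type I interferon-stimulated genes, 11 were above and none below in the larger set, and none above and 7 below in the smaller, with medians of 0.66 and -0.62. Of all genes 0.780% were above in the larger set and 1.67% below in the smaller. IFIT3, an antiviral RNA-binding protein, was at 0.640, 1.09 and 7.49 in HTO4+HTO10, HTO3+HTO8 and HTO3+HTO6, and at 0.0882, 0.0687 and 3.90 in HTO3+HTO7, HTO3+HTO5 and HTO3+HTO9, against 0.177 to 0.297, 0.205 to 0.475 and 5.76 to 7.04 on the low side of the same classes. MX1, an antiviral GTPase, was at 1.01 ± 0.38 and -1.02 ± 0.40, and IFI6, a mitochondrial interferon-stimulated protein, at 0.61 ± 0.16 and -1.66 ± 0.73. The classes had been defined from the IFN-gamma and TNF lists, which themselves differed by 0.18 ± 0.09 and 0.09 ± 0.04 in the larger and by -0.41 ± 0.20 and -0.13 ± 0.29 in the smaller samples.

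NRF2 is the transcription factor of the oxidative stress response. Of 24 measured genes of the NRF2 and redox list, 7 were below and none above in the larger set (GCLM, GCLC, TXNRD1, SRXN1, SLC7A11, AKR1C1 and AKR1C3). In the smaller set 3 were above and none below (HMOX1, SLC7A11 and AKR1C1). Of all genes 0.438% were below in the larger set and 0.470% above in the smaller. The list's medians were -0.30 and 0.03, and its summed level differed by -0.30 ± 0.05 and -0.09 ± 0.10. The list as a whole was thus not raised in the smaller set. SLC7A11, the cystine importer, was at 0.496, 0.546 and 0.349 in the larger samples, 1.36, 2.06 and 1.29 in the smaller, and 0.697 to 1.30 on the low side. TXNRD1, a thioredoxin reductase, was at 6.91, 10.1 and 7.17 in the larger samples and 12.2 to 19.3 on the low side, without overlap (-0.96 ± 0.10), while the smaller samples were at 12.9, 17.3 and 17.1 (0.01 ± 0.21). HMOX1, which degrades heme, was at 1.37, 0.996 and 0.940 in the smaller samples, 0.814, 0.713 and 0.566 in the larger, and 0.0668 to 1.05 on the low side. FTH1, the ferritin heavy chain, was lower on the whole high side in every class (-0.22 ± 0.09). Of 20 measured unfolded protein and amino acid stress genes, 2 were below in the larger set (SLC7A11 and PPP1R15A) and 3 above in the smaller (SLC7A11, DNAJB9 and DDIT3), beside the same shares of all genes, with medians of -0.42 and 0.37.

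Some cell cycle genes were low in the smaller samples. Of 19 measured G2 and M phase genes, 6 were below in the smaller set, beside 1.67% of all genes, and none in the larger, with medians of -0.79 and -0.04. Of 19 S phase genes 4 were below in the smaller set and none in the larger, and the S phase sum was not separated, at 3.69 in HTO3+HTO5 against a low-side range of 2.44 to 7.19. CDC20 and CDC45 were at 0.0036 and 0.18 in the smaller set. The summed G2 and M level was 2.67, 3.95 and 0.755 in HTO3+HTO7, HTO3+HTO5 and HTO3+HTO9. On the low side of the same classes it was 5.17 to 7.30, 4.30 to 5.47 and 2.51 to 5.77. Each smaller sample thus lay below the low side of its class. TOP2A, the topoisomerase of dividing cells, gave -1.50 ± 1.14, and CCNB1, the mitotic cyclin, -1.12 ± 0.43. These 3 samples also held the fewest cells of the high side, so that single cells weigh more in their sums. The part of cell number, cell cycle, hashtag or tumour in any gene's difference was not tested. Nuclear genes of oxidative phosphorylation were near 0 in both sets, with medians of 0.03 and -0.05 over 44 genes, and no member past the threshold.

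**Figure D4:**
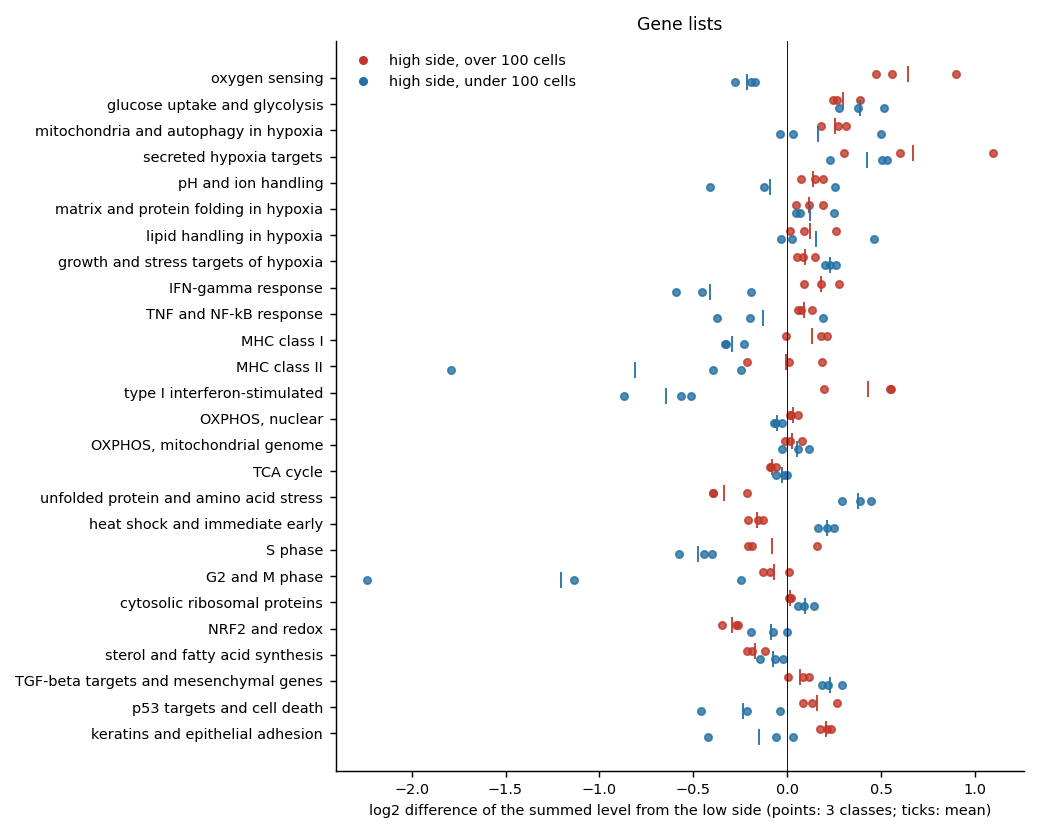
Log2 difference of each list's summed level from the low side (horizontal axis) in the 3 larger (red) and 3 smaller (blue) high-side samples; points are the 3 classes and ticks their mean. Glycolysis lies right of 0 in both, while oxygen sensing, type I interferon-stimulated genes and the unfolded protein list lie on opposite sides of 0.

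Genes outside all lists completed the whole high side's account. Among genes with a mean level of at least 0.2, MOB3A, a protein of the MOB family, was at 0.469, 0.309, 0.508, 0.344, 0.429 and 0.385 in the 6 samples in the order above and 0.178 to 0.297 on the low side, without overlap (0.67 ± 0.12). ZMYND8, a chromatin reader, gave 0.45 ± 0.07, NARF 0.43 ± 0.10 and WDR54 0.38 ± 0.05. The largest differences downward were FAS, a death receptor, at -0.43 ± 0.17, LRRC42 at -0.40 ± 0.07, GFM1, a mitochondrial elongation factor, at -0.40 ± 0.17, and TRIAP1, a p53-regulated survival gene, at -0.39 ± 0.14. In the larger set, CYP1B1, a monooxygenase, was at -1.16 ± 0.39 and SFN, a 14-3-3 protein of epithelia, at -1.07 ± 0.26. In the smaller set PTGS2, the inducible cyclooxygenase, was at 1.08 ± 0.25 and IL1B, an inflammatory cytokine, at 1.05 ± 0.52, while AGR2, a disulfide isomerase of secretory epithelia, was at -1.23 ± 0.75.

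The glycolysis difference was also present cell by cell. After each cell was thinned to 5000 UMIs, which left out 216 shallower cells of 3144, the median glycolysis list level per cell was 61 to 74 counts per 10000 UMIs in the high-side samples and 46 to 58 in the low-side samples. The 10th percentile was 36.0 to 44.8 against 32.0 to 40.0 and the 90th percentile 96.0 to 126 against 66.4 to 98.0. The low as well as the high percentiles were thus shifted, with some overlap between samples of different classes. EGLN3 was found in 52.1% to 58.9% of thinned cells in the larger samples, 13.6% to 30.6% in the smaller and 6.57% to 30.7% on the low side (unthinned 68.7% to 76.6%, 19.7% to 47.2% and 21.4% to 48.7%). ANGPTL4 was found in 57.8%, 31.6% and 14.2% of thinned cells of HTO4+HTO10, HTO3+HTO8 and HTO3+HTO6, and in 1.69% to 36.2% on the low side. HK2 was found in 10.4% to 15.6% of thinned cells in the larger samples, 4.08% to 9.09% in the smaller and 0% to 8.03% on the low side. The shares for P4HA1 were 33.0% to 39.6%, 22.2% to 34.8% and 19.6% to 27.4%. Within their classes, HTO3+HTO5 and HTO3+HTO9 were inside the low side for HK2, and HTO3+HTO5 was below it for P4HA1. LDHA was found in 89.8% to 100% of thinned cells on the high side and 84.6% to 95.2% on the low side, too near saturation to order the samples. The pool held no other cell type that should lack these genes, so a share due to free RNA was not measured.

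**Figure D5:**
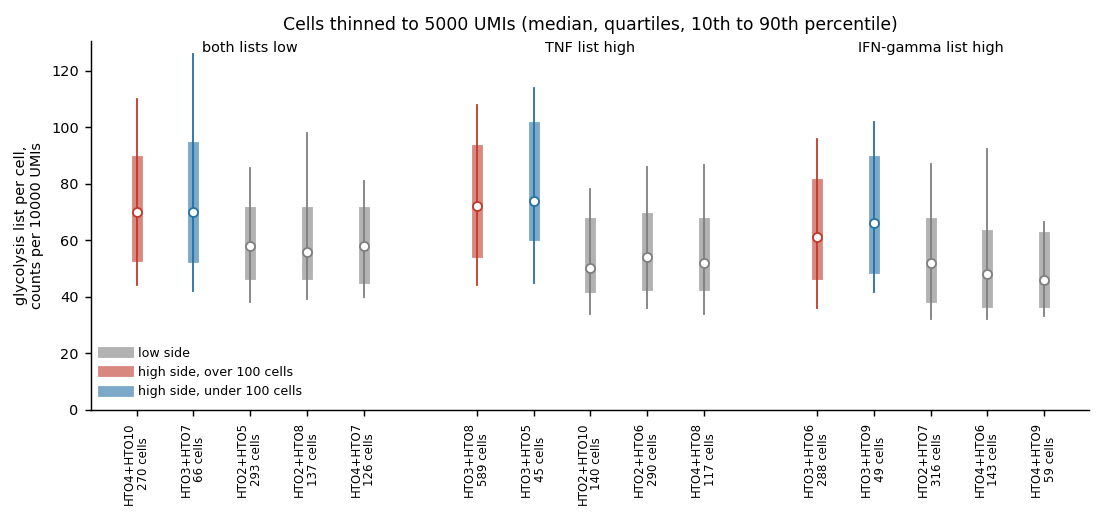
Glycolysis list level per cell (vertical axis from 0, counts per 10000 UMIs) after thinning to 5000 UMIs; circles are medians, thick bars quartiles and thin lines the 10th to 90th percentile in each of 15 hashed samples, grouped by response class. The high-side medians (61 to 74) lie above the low-side medians (46 to 58).

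Barcodes that failed the filters on genes or mitochondrial share were not used to choose the sides, though they come from the same samples. There were 753 of them on the high side and 783 on the low side, 37 to 301 a sample. HTO3+HTO7, HTO3+HTO5 and HTO3+HTO9 had 56, 37 and 46, beside 71, 49 and 53 kept cells. In each of these smaller samples a larger part failed than in any other sample, and its part in their gene levels was not tested. In the failed barcodes LDHA was at 6.97 to 10.2 on the high side and 3.69 to 6.48 on the low side, again without overlap (0.74 ± 0.11). EGLN3 was at 1.24 to 1.80 in the larger samples, 0.251 to 0.453 in the smaller and 0.0638 to 0.458 on the low side, the pattern of the kept cells. STC2 was at 0.0792 to 0.182 in the larger, 0.948 to 1.56 in the smaller and 0.152 to 0.967 on the low side. The summed hypoxia list was again separated in every class (0.28 ± 0.08). NDRG1 was so too (1.30 ± 0.85), though not in the kept cells. Some other members were less clear in these barcodes. The glycolysis list, at 44.3 to 67.9 on the high side and 32.7 to 50.6 on the low side, PGK1 (0.46 ± 0.15) and P4HA1, at 0.482 to 1.11 and 0.366 to 0.837, were not separated in every class. In the larger samples PGK1 was at 0.09 ± 0.25 and P4HA1 at 0.11 ± 0.17, SDs larger than the means, and in the smaller samples at 0.82 ± 0.40 and 0.76 ± 0.29.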

How the data were processed

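Gene and hashtag counts came from 1 deposited matrix of whole-number UMI counts per gene and barcode, made by the authors with Cell Ranger: 5.0.1 per the file headers, and 2.1.1 with GRCh38 per the submitters' processing notes. Gene models and filters before deposit are not given in the sources used here, and no doublet caller was run. Of 5269 barcodes, 3538 had at least 1000 genes and at most 20% mitochondrial counts. A barcode's pair was its top 2 hashtags, provided that the weaker of them had 10 or more counts and 3-fold or more those of the next tag, which drops most mixtures of samples but not doublets within a sample. Kept cells of a pair were summed (582102 to 7324691 UMIs) and scaled to 10000 UMIs. Log2 differences used a pseudocount of 0.05 and were averaged over the 3 response classes, which came from expression and not from labels. A gene was called when all high-side samples lay beyond all low-side samples in every class; for the larger and smaller sets, compared by cell number after their values were seen, the mean also had to pass 1.5-fold. No significance test was run between the sides, since they were selected from the same contrast. The samples come from 1 library, so their spread holds no repeat of library preparation. Samples far from the rest of their side were sought with an outlier criterion (Dixon) at 5%. The members and lists were chosen with earlier results of these data known. Named were the markers of the label, called hypoxia members and the defining members of each role, the 12 largest called differences in each direction among genes at a level of at least 0.2, and called members of other lists; in the text some of these are given only as counts, and ZNF263, LRRC8E, ALDOA and LDHB were named after their values were seen. Of all listed genes, GPX1 was not matched. Alternatives changed the filters, scaling, pseudocount, minimum level, classes and samples. Python 3.11.15, numpy 2.4.6, pandas 2.3.3 and scipy 1.17.1 were used, and the counting was tested on simulated data.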

Additional observations from a re-analysis of the deposited data

Results flagged for a closer look

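The measured hypoxia members and the called genes of largest difference, 137 in all, were searched for opposite directions. In 17 of them the 3 larger high-side samples all lay on one side of the low-side samples of their class and the 3 smaller ones all on the other; the difference between the sets was not tested, and both share the 9 low-side samples. Above the low side in the larger and below it in the smaller samples, in mean log2 difference, were PFKFB3 (1.56 and -0.34), APOL1 (1.17 and -0.40), ZNF292 (1.14 and -0.50), IFIT3 (1.01 and -1.16), TNFSF10 (0.96 and -1.16), IFI44L (0.95 and -1.40), EGLN1 (0.83 and -0.48), TSPAN8 (0.65 and -1.29), IFI6 (0.61 and -1.66), CA12 (0.42 and -0.66), AGR2 (0.41 and -1.23) and HK1 (0.33 and -0.23). Below it in the larger and above it in the smaller samples were STC2 (-1.35 and 1.05), SLC7A11 (-1.05 and 0.60), EREG (-0.82 and 0.64), TIPARP (-0.82 and 0.62) and PTGS2 (-0.62 and 1.08). Outside the searched genes, MX1, BST2 and AKR1C1 met the same criterion; over all 9361 measured genes 137 did. The 3 larger samples held 291 to 630 cells and the 3 smaller 49 to 71, and the part of cell number or tumour in these values was not tested. Counting error in the smaller samples, given above for PFKFB3 and EGLN1, was not part of this criterion.

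Of 34 groups of samples examined, 2 had a sample far from the rest of its side, and chance alone puts about 5% of groups there. PDK1 in HTO2+HTO5, at 0.163, stood apart from the other low-side samples, and BNIP3 in HTO3+HTO5, at 0.0172, stood apart on the high side. That BNIP3 level is a count of 1, with a Poisson interval of 0.000435 to 0.0957 that reaches past every other sample's level. The 394 kept cells with no clear hashtag pair, which enter no comparison, had a summed hypoxia list level of 167.3, between the medians of the low side (152.1) and the high side (185.6).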

How the results depend on the processing

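The hypoxia list difference (0.21 to 0.27), LDHA (0.71 to 0.84) and PGK1 (0.64 to 0.82) kept their direction and moved by less than their SD over classes in every alternative run, including those that left out 1 sample each. FAM162A, GAPDH, HK2, LDHA, PGK1 and TPI1 were higher in every class in the 22 settings compared gene by gene. The setting without classes was not among them. In 15 of the 22 settings 1 sample was left out, which cannot lose a gene already called. Those 15 therefore say nothing about these genes, and only the other settings could have lost them. The genes called did turn over. Of the 20, a mitochondrial share of at most 15% kept 11 (P4HA2, PGAM1 and LOXL2 were lost) and the mean per cell 14 (P4HA1 and LOXL2 lost). Leaving out the cells of highest cycling level kept 15 (LOXL2 lost) and a stricter minimum of genes per cell 16. Over the whole high side, median-of-ratios size factors gave 33 genes higher and 20 lower (20 and 34 with totals), a changed split, with a median over all genes of -0.01. Without response classes 5 were higher, 2 lower and 3 hypoxia members higher; without the 2 samples of fewest cells 98 and 235. Only the 3 larger samples gave 473 higher, 687 lower and 35 members, and only the 3 smaller 356, 697 and 19, with no minimum fold and fewer samples to separate. EGLN3 was -0.24 with only the smaller samples.

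Leaving out 1 sample each, which also loosens the rule, gave 22 to 46 genes higher and 42 to 97 lower. Counts of higher genes passed 1.5 times without HTO3+HTO5 (46), HTO3+HTO6 (35), HTO3+HTO7 (45), HTO3+HTO8 (31), HTO3+HTO9 (31), HTO4+HTO10 (33), HTO2+HTO7 (32) or HTO4+HTO8 (31); counts of lower genes did so without the same high-side samples (81, 70, 78, 57, 97 and 69) or without HTO2+HTO5 (52), HTO4+HTO6 (61) or HTO4+HTO8 (57). EGLN3 ranged from 0.57 without HTO4+HTO10 to 1.75 without HTO3+HTO7, and ANGPTL4 from 0.92 to 1.69 without the same samples.

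For the sets by size, a pseudocount of 0.01 gave 119 higher and 85 lower in the larger and 93 and 284 in the smaller, and 0.2 gave 37, 19, 17 and 27. A minimum level of 0.2 gave 48 higher in the larger, and 25 higher and 65 lower in the smaller. In the smaller set, a mitochondrial share of at most 15% gave 82 higher, totals without mitochondrial and ribosomal protein genes 74 higher, and size factors 80 lower. The causes were not tested. With HTO4 samples alone, and without a larger or smaller sample in its own set, no count over 3 classes could be given. No paired analysis was possible because no label gives the hashed samples replicate numbers. Genes at a few counts in the smaller samples or in HTO4+HTO9 are limited by depth.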
